A study of Homo sapiens with 29 samples.

Results

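Levels are described here of 10 genes whose products import, phosphorylate, deaminate or hydrolyse decitabine, or make the natural deoxynucleotides it competes with. They are SLC29A1, SLC29A2, DCK, CMPK1, CDA, DCTD, SAMHD1, RRM1, RRM2 and RRM2B. They were chosen by symbol, and each matched 1 of the 58302 Ensembl genes of the deposited count table. The tumours were xenografts of the human triple-negative breast cancer line MDA-MB-231 or of a paclitaxel-resistant line derived from it, grown orthotopically in immunodeficient SCID-beige mice. The study asked whether resistance goes with expression changes tied to DNA methylation, and whether the methyltransferase inhibitor decitabine turns them back.

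The resistant tumours formed 4 groups, given decitabine with doxorubicin (3 libraries), decitabine alone (3), doxorubicin alone (4) or vehicle (4). Parental tumours received the same regimens, with 4 libraries for the combination, 4 for decitabine, 3 for doxorubicin and 4 for vehicle. Doses were 0.4 mg/kg for decitabine and 1 mg/kg for doxorubicin, an anthracycline that poisons topoisomerase II, over 26 days in 2 cycles of 12 days. All mice were SCID-beige, which lack T and B cells, and each was injected on both sides, so libraries of a group may share a mouse and the p-values cover only the variation seen among these libraries. For resistant tumours 1500000 cells were injected and dosing began on day 16, and for parental tumours 250000 cells were injected and dosing began on day 6. The resistant line, its cell dose and its start day cannot be told apart. The labels give paclitaxel resistance as the property of the derived line, and no tumour here received paclitaxel.

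The 29 libraries held between 3398261 and 5382295 counts (median 4600007). Counts were 3′ tags, which do not scale with transcript length. All 10 genes passed the filter on low counts, as did 13495 genes in all. The mesenchymal marker VIM averaged between 1791 CPM (counts scaled to a library of 1000000) in resistant decitabine tumours and 2745 CPM in parental combination tumours. ESR1, the oestrogen receptor, averaged at most 1.10 CPM in any group, and PGR, the progesterone receptor, had 1 count over all libraries. Resistant decitabine library 2 and parental vehicle library 3 stood apart on the second principal component, and several results are also given without them.

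Decitabine is a deoxycytidine analogue that enters cells through equilibrative nucleoside transporters. Deoxycytidine kinase adds the initial phosphate, which commits the drug to the cell, and further kinases carry it to the triphosphate that is built into DNA and traps DNA methyltransferases. Cytidine deaminase destroys the nucleoside, dCMP deaminase acts on its monophosphate, SAMHD1 hydrolyses the triphosphate, and ribonucleotide reductase makes the dCTP that competes with it and inhibits deoxycytidine kinase.

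The promoters below show the sequence upstream of a RefSeq start for 3 of the 10 genes, CDA, SAMHD1 and RRM2. CMPK1 is among the genes whose sequence is not shown. RefSeq windows on GRCh38.p14 were found for 8 of the 10 genes (11 windows), and the 250 bases before each annotated start were read. For CDA (chr1:20588847-20589096, plus strand) and SAMHD1 (chr20:36951709-36951958, minus strand), capitals mark CpG dinucleotides, the sites that DNA methyltransferases methylate.
CDA promoter: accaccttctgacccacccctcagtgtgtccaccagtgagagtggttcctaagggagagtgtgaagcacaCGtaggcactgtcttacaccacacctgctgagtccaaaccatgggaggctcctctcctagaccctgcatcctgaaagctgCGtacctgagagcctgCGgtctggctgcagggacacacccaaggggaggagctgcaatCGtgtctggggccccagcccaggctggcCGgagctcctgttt
SAMHD1 promoter: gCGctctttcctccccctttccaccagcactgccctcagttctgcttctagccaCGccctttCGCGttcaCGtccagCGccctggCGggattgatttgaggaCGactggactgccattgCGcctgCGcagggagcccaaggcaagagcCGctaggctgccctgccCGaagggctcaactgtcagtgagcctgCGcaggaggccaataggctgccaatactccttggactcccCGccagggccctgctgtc

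The CDA window held 5 CpGs and the SAMHD1 window 14, against a median of 11 over 35116 windows. DCK (31), DCTD (23 and 40), SLC29A1 (19 and 27), CMPK1 (16), RRM1 (18) and RRM2 (27 and 34) all had more CpGs per window than CDA. Methylation was not measured here. In the RRM2 window (chr2:10122489-10122738, plus strand), capitals mark the CCAAT motif, searched on both strands.
RRM2 promoter: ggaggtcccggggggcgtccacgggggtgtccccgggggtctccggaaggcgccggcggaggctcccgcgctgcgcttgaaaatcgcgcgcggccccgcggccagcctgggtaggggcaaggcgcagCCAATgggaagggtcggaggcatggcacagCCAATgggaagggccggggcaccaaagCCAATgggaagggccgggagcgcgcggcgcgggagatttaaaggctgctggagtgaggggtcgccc

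This RRM2 window held 3 CCAAT matches, the SAMHD1 window 2 and the RRM1 window 1, and 32.01% of all windows held at least 1. The CDA, DCK, DCTD, SLC29A1 and CMPK1 windows held no CCAAT. A match is a description of the letters and not of a bound site.

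Cytidine deaminase marked the resistant tumours. CDA was lower in resistant than in parental tumours under every treatment, and CMPK1, the kinase of the next step after DCK, was lower as well. SLC29A1 and RRM1 were lower on average and SAMHD1 was higher on average, but under vehicle none of these differences passed the test. DCK, the kinase of the initial step, showed no difference between the lines that passed the test. A gene is called here at an adjusted p under 0.05 in edgeR's quasi-likelihood test over all 13495 genes, with Benjamini-Hochberg adjustment. In bulk tumour RNA, fewer cells of a type and less RNA per cell cannot be told apart.

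**Figure D1:**
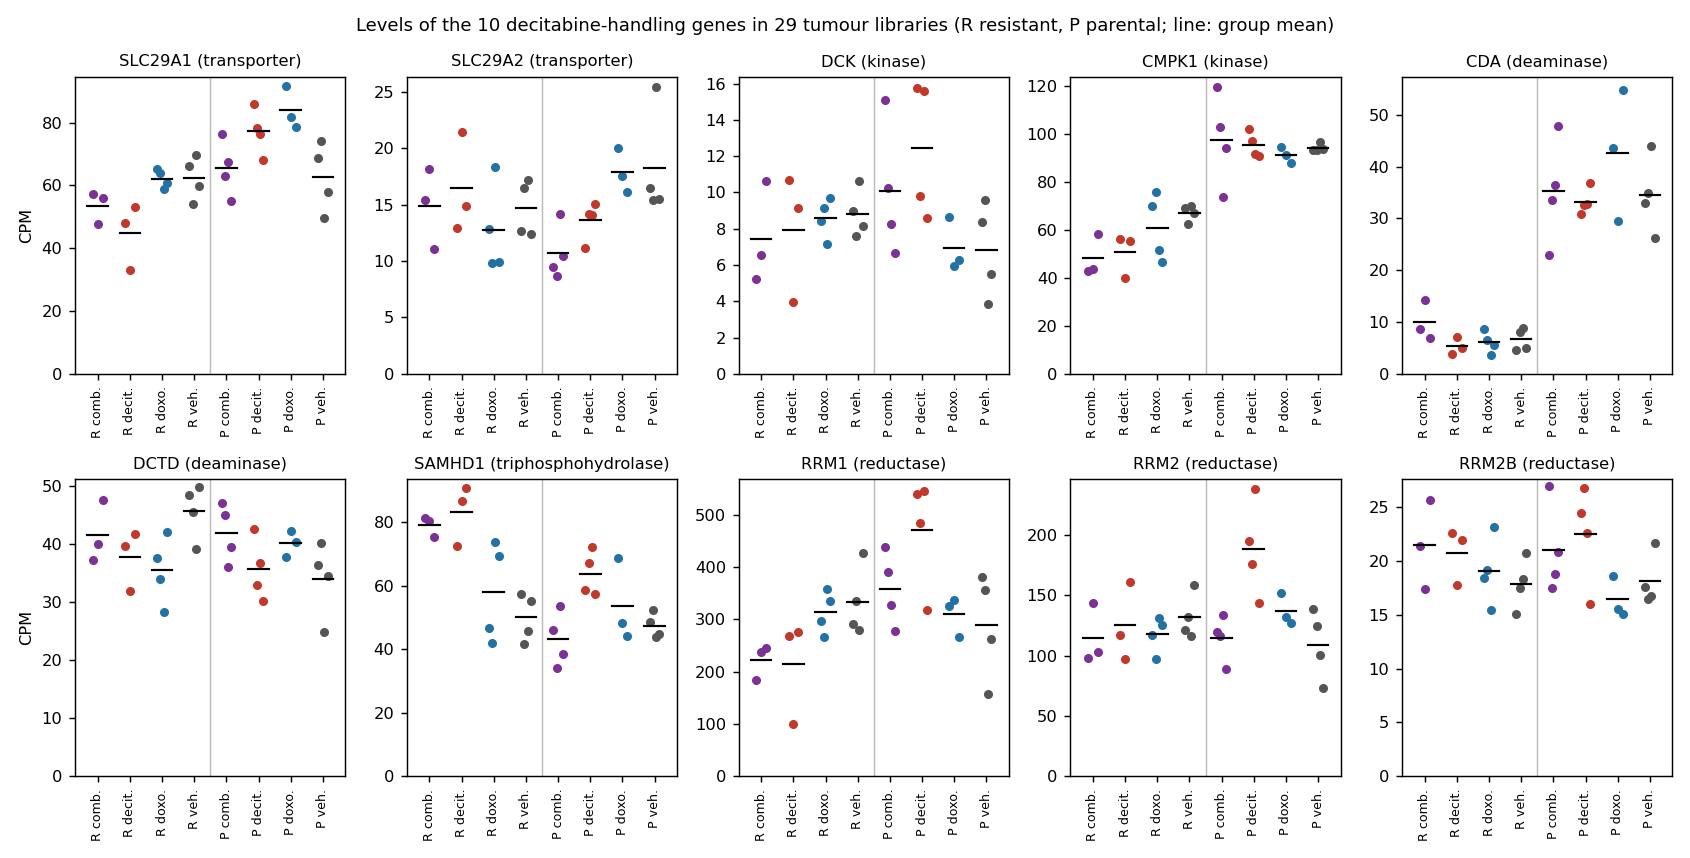
Levels of the 10 genes in CPM on a linear axis starting at 0, with 1 point per library, groups of resistant (R) tumours left of parental (P) tumours and a line at each group mean. The 14 resistant libraries lie between 3.58 and 14.3 CPM for CDA, below all 15 parental libraries at 22.9 to 54.7 CPM.

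Averaged over the 4 treatments, 5 of the 10 genes were called between the lines, where 46% of all tested genes were called. Of these, 1 was higher (background 22.6%) and 4 were lower (background 23.4%) in resistant tumours. The median log2 difference of the 10 genes was -0.11, against -0.00 over all genes tested. Under vehicle 3 of 10 were called (background 20.1%), under decitabine 5 of 10 (background 26.8%), under doxorubicin 3 of 10 (background 13.9%) and under the combination 3 of 10 (background 21.9%). Read against these backgrounds, the counts say nothing particular about the 10 genes as a set, and single genes are described below.

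Uptake is carried by SLC29A1 and SLC29A2, the equilibrative transporters ENT1 and ENT2. SLC29A1 (chr6:44219505-44234151, plus strand, GRCh38) stood at 47.9, 33.0 and 53.2 CPM in resistant decitabine tumours, against 85.8, 78.4, 76.4 and 68.0 CPM in parental decitabine tumours. The groups did not overlap, as was true of 31.1% of all tested genes in this comparison, and library 2 was the lowest of the resistant ones. The log2 difference was -0.78 (SE 0.15, adjusted p = 0.000287), and it was -0.61 without resistant decitabine 2 and parental vehicle 3. Averaged over treatments SLC29A1 was lower in resistant tumours by a log2 of -0.38 (SE 0.07, adjusted p = 8.68e-05).

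Under vehicle SLC29A1 averaged 62.5 ± 6.85 CPM in resistant and 62.6 ± 11.0 CPM in parental tumours (SD, n = 4 each), so the lines overlapped there. Under doxorubicin it averaged 62.1 ± 2.89 CPM in resistant (n = 4) and 84.0 ± 6.74 CPM in parental tumours (n = 3), a log2 difference of -0.44 (SE 0.14, adjusted p = 0.0415). That call was lost in each of the 7 fits that left out 1 of these libraries (adjusted p from 0.0608 to 0.176). With decitabine against vehicle, SLC29A1 had a log2 difference of -0.48 in resistant tumours (SE 0.15, adjusted p = 0.0730) and of 0.30 in parental tumours (SE 0.13, adjusted p = 0.221), and neither passed. Without resistant decitabine 2 and parental vehicle 3 they were -0.31 in resistant and 0.21 in parental tumours. The drug comparisons within a line share their vehicle libraries with the line comparison.

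SLC29A2 (chr11:66362521-66372214, minus strand) was called in none of the 14 comparisons by edgeR. Its group means ran from 10.7 ± 2.41 CPM in parental combination tumours (n = 4) to 18.2 ± 4.85 CPM in parental vehicle tumours (n = 4), and those are the groups farthest apart. In detail it stood at 9.50, 8.65, 14.1 and 10.4 CPM in parental combination tumours, against 16.5, 15.4, 25.5 and 15.5 CPM in parental vehicle tumours. The groups did not overlap, but the log2 difference of -0.77 (SE 0.22) missed the threshold with an adjusted p of 0.0731. The share of all genes without overlap was not counted for this comparison. Parental vehicle library 3, at 25.5 CPM, was the highest of the 29, and without it and resistant decitabine 2 the log2 difference was -0.57 (adjusted p = 0.221). DESeq2 called this difference (adjusted p = 0.0412), as did edgeR without parental combination 3 (0.0480).

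The ratio of SLC29A1 to SLC29A2 counts within a library ran from 1.54 to 6.51 in resistant tumours (median 3.89) and from 1.95 to 8.06 in parental tumours (median 4.80). The lowest values of the lines belonged to the libraries that stood apart, resistant decitabine 2 and parental vehicle 3.

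Phosphorylation starts with DCK (chr4:70992538-71030914, plus strand), deoxycytidine kinase. It was measured from few counts, 14 to 83 in a library, which limits what could be detected. DCK stood at 8.98, 7.60, 10.6 and 8.14 CPM in resistant vehicle tumours, against 8.35, 9.56, 3.86 and 5.48 CPM in parental vehicle tumours. The groups overlapped, and the log2 difference was 0.37 (SE 0.31, adjusted p = 0.440). Averaged over treatments it was -0.10 (SE 0.16, adjusted p = 0.651), so a difference between the lines was not detectable at this depth.

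In parental tumours DCK stood at 15.8, 9.78, 15.6 and 8.59 CPM with decitabine. Decitabine libraries 1, 2 and 3 were above all 4 parental vehicle libraries and library 4 was not. The log2 difference over vehicle was 0.86 (SE 0.29, adjusted p = 0.112), which did not pass, and it was 0.68 (adjusted p = 0.210) without resistant decitabine 2 and parental vehicle 3. In resistant tumours DCK stood at 10.7, 3.96 and 9.16 CPM with decitabine, with library 2 the lowest, and the log2 difference over vehicle was -0.13 (SE 0.32, adjusted p = 0.857), or 0.16 without that library. Its locus, with 1197 counts over all libraries, overlaps MOB1B on the same strand, with 1883 counts, and the handling of overlapping genes in the counting is not given in the sources used here.

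CMPK1 (chr1:47333797-47378839, plus strand), the UMP/CMP kinase that makes the diphosphate, was lower in resistant tumours under all 4 treatments. With vehicle it stood at 69.2, 62.6, 70.1 and 67.1 CPM in resistant tumours, against 93.2, 93.2, 96.7 and 93.5 CPM in parental tumours. The groups did not overlap, as for 22.3% of all tested genes, and the log2 difference was -0.49 (SE 0.14, adjusted p = 0.0157). Without resistant vehicle 2 the adjusted p was 0.0555.

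With the combination CMPK1 stood at 42.9, 43.8 and 58.3 CPM in resistant tumours, against 119.7, 103.0, 73.7 and 94.2 CPM in parental tumours. The log2 difference there was -1.01 (SE 0.16, adjusted p = 4.27e-05). It was -0.91 with decitabine (SE 0.16), or -0.77 (adjusted p = 0.00179) without resistant decitabine 2 and parental vehicle 3, and -0.58 with doxorubicin (SE 0.15, adjusted p = 0.00899). The doxorubicin difference missed the threshold without resistant doxorubicin 3 (0.05003) or 4 (0.0540). Over all treatments the ranges were 40.1 to 75.6 CPM in the 14 resistant libraries and 73.7 to 119.7 CPM in the 15 parental libraries, and the averaged log2 difference was -0.75 (SE 0.08, adjusted p = 3.99e-09).

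Within the resistant line, CMPK1 averaged 50.7 ± 9.14 CPM with decitabine (n = 3) and 67.2 ± 3.35 CPM with vehicle (n = 4). The 2 groups did not overlap, as for 16% of all tested genes. The log2 difference of -0.40 (SE 0.16, adjusted p = 0.148) did not pass, and it was -0.27 without resistant decitabine 2 and parental vehicle 3.

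Breakdown of the nucleoside falls to CDA (chr1:20588948-20618908, plus strand), cytidine deaminase, which turns decitabine into an inactive uridine analogue. With vehicle it stood at 4.61, 8.11, 8.82 and 4.97 CPM in resistant tumours, against 32.9, 35.0, 44.0 and 26.2 CPM in parental tumours. With decitabine it stood at 3.90, 7.06 and 4.90 CPM in resistant tumours, against 30.8, 32.6, 32.8 and 36.9 CPM in parental tumours. Every resistant library was below every parental library, in these treatments and in the other two.

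With doxorubicin CDA stood at 8.61, 6.54, 3.58 and 5.47 CPM in resistant tumours, against 43.7, 29.4 and 54.7 CPM in parental tumours. The groups did not overlap, as for 27.8% of tested genes under doxorubicin. With the combination it stood at 8.66, 14.3 and 6.83 CPM in resistant tumours, against 22.9, 33.6, 36.5 and 47.9 CPM in parental tumours. The separation of all 14 resistant from all 15 parental libraries was shared by 3.34% of the tested genes. The log2 difference was -2.38 with vehicle (SE 0.27, adjusted p = 3.88e-07), -2.67 with decitabine (SE 0.31), -2.80 with doxorubicin (SE 0.28) and -1.84 with the combination (SE 0.28, adjusted p = 3.96e-05). It was called in every fit that left out a library and under every other setting tried.

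CDA was called in none of the drug comparisons. Decitabine over vehicle gave a log2 difference of -0.35 in resistant tumours (SE 0.35, adjusted p = 0.601) and of -0.05 in parental tumours (SE 0.23, adjusted p = 0.925). In the resistant tumours these levels rest on few counts, 67 over the 3 decitabine libraries and 112 over the 4 vehicle libraries. In the same comparison SLC29A1, with a log2 difference of -0.48 and an SE of 0.15, did not pass. A CDA change larger than its error could therefore also be missed at this depth. In resistant tumours CDA averaged 9.92 ± 3.87 CPM with the combination (SD, n = 3) and 6.63 ± 2.14 CPM with vehicle (n = 4), a log2 difference of 0.57 (SE 0.32, adjusted p = 0.384). Averaged over line and decitabine, doxorubicin gave it a log2 difference of 0.30 (SE 0.15, adjusted p = 0.274).

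**Figure D2:**
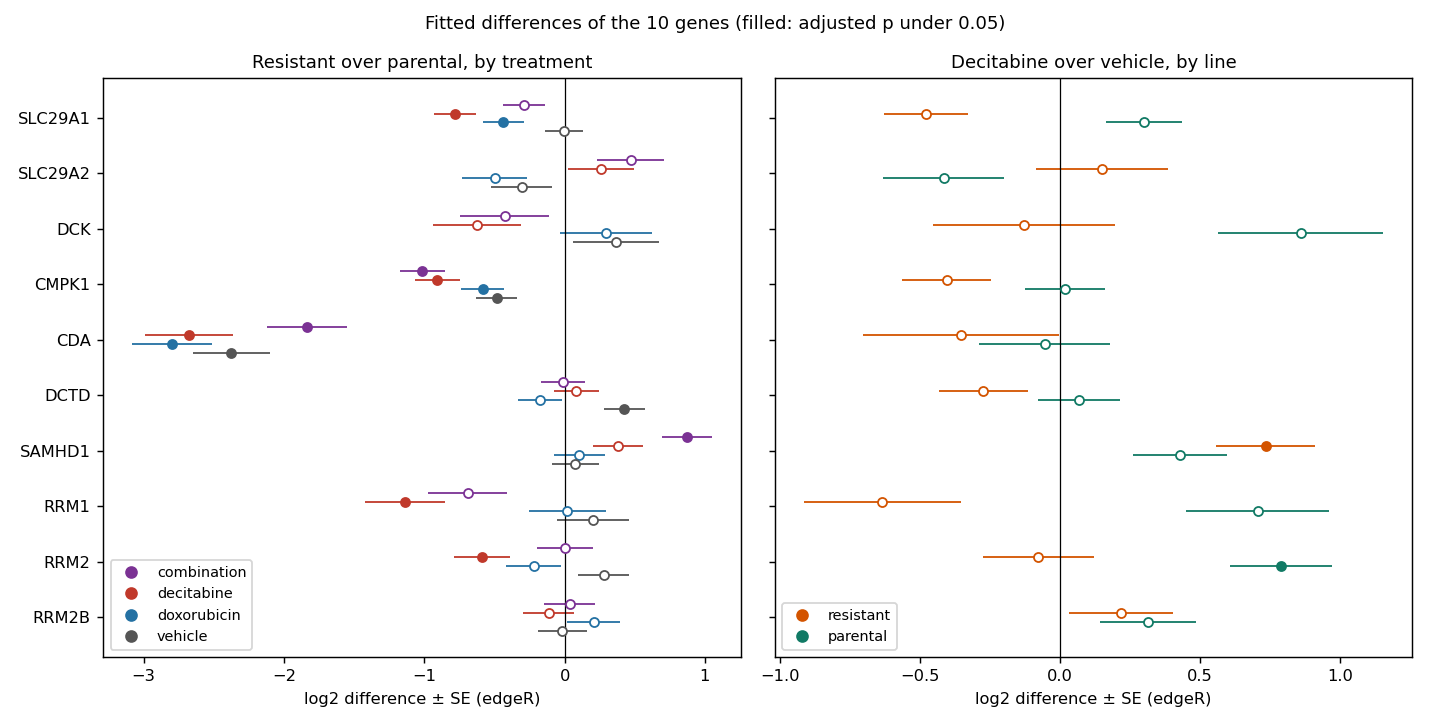
Fitted log2 differences ± SE of the 10 genes for the resistant over the parental line by treatment (left) and for decitabine over vehicle by line (right). Filled points have an adjusted p under 0.05: CDA and CMPK1 lie left of 0 and filled under all 4 treatments, and decitabine has filled points for SAMHD1 in resistant tumours (0.73) and RRM2 in parental tumours (0.79).

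DCTD (chr4:182890060-182917936, minus strand), the dCMP deaminase that also deaminates the monophosphate of decitabine, was higher in resistant tumours under vehicle. It stood at 48.6, 45.6, 39.1 and 49.9 CPM in resistant vehicle tumours, against 36.4, 40.2, 24.95 and 34.5 CPM in parental vehicle tumours. The groups overlapped, with resistant library 3 below parental library 2. The log2 difference was 0.43 (SE 0.15, adjusted p = 0.0386), and the call was lost in 5 of the 8 fits that left out a library, up to an adjusted p of 0.161 without parental vehicle 3. Under the other treatments the mean levels were 35.5 to 41.7 CPM in the resistant groups and 35.7 to 42.0 CPM in the parental groups, and none was called.

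The balance of activation and breakdown can be put as the ratio of DCK to CDA counts within a library, which needs no scaling between libraries. It ran from 0.458 to 2.74 in the resistant libraries (median 1.48) and from 0.0877 to 0.659 in the parental libraries (median 0.233). The lines overlapped, since a few resistant libraries with decitabine or the combination lay below the highest parental library. DCK counts exceeded CDA counts in most resistant libraries and in none of the parental libraries. Of the pair, CDA was called between the lines and DCK was not. The ratio compares tags of transcripts and not enzyme activities.

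**Figure D3:**
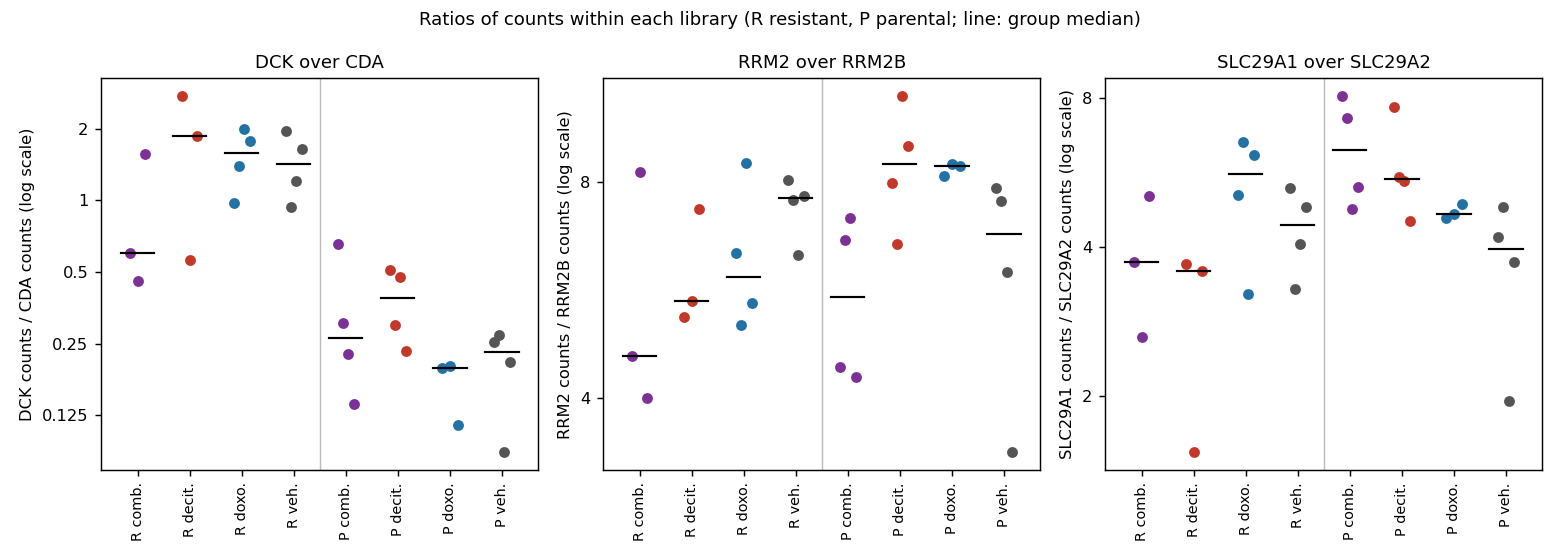
Ratios of counts within each library on log axes, 1 point per library and a line at the group median, with resistant (R) groups left of parental (P) groups. All 3 ratios overlap between the lines, with medians in resistant and parental libraries of 1.48 and 0.233 for DCK over CDA, 6.35 and 7.53 for RRM2 over RRM2B, and 3.89 and 4.80 for SLC29A1 over SLC29A2.

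Hydrolysis of the triphosphate is the work of SAMHD1 (chr20:36889773-36951901, minus strand), a deoxynucleotide triphosphohydrolase that is itself interferon-inducible. SAMHD1 rose with decitabine in the resistant line. It stood at 72.5, 86.7 and 90.7 CPM in resistant decitabine tumours, against 57.3, 41.8, 45.7 and 55.4 CPM in resistant vehicle tumours. The groups did not overlap, as for 16% of all tested genes. Of the 10 genes it was the one called in this comparison, where 3.33% of all genes were called, with a log2 difference of 0.73 (SE 0.18, adjusted p = 0.0193). The call was lost without resistant decitabine 2 (0.0845) or 3 (0.0760), without resistant vehicle 2 (0.0652), and without resistant decitabine 2 and parental vehicle 3 together (0.0786), with log2 differences of 0.66 to 0.70 in the fits that lost it by leaving out a single library.

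In parental tumours SAMHD1 stood at 58.7, 67.1, 72.2 and 57.6 CPM with decitabine, against 48.7, 52.4, 44.0 and 44.7 CPM with vehicle. Here too the groups did not overlap, as for 9.46% of all tested genes, but the log2 difference of 0.43 (SE 0.17, adjusted p = 0.157) did not pass. With the combination SAMHD1 stood at 81.4, 80.5 and 75.4 CPM in resistant tumours, against 46.0, 34.2, 53.7 and 38.5 CPM in parental tumours. The lines did not overlap there, as for 28.9% of all tested genes. The log2 difference was 0.87 (SE 0.18, adjusted p = 0.000853) and was called with each library left out in turn. The parental combination libraries overlapped the parental vehicle libraries and lay below the parental decitabine libraries. The latter difference was not tested, and the share of all genes without overlap was not counted for it.

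Averaged over line and doxorubicin, SAMHD1 rose with decitabine by a log2 of 0.32 (SE 0.09, adjusted p = 0.0232), the 1 call among the 10 genes where 6.8% of all genes were called. Without parental doxorubicin 2 the adjusted p was 0.0529. Averaged over treatments, SAMHD1 was higher in resistant tumours by a log2 of 0.36 (SE 0.09, adjusted p = 0.00135). Without the combination no single treatment gave a call. The line difference was 0.08 under vehicle (adjusted p = 0.794), 0.11 under doxorubicin (adjusted p = 0.766) and 0.38 under decitabine (adjusted p = 0.107).

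A list of interferon-stimulated genes was read beside SAMHD1, which it does not hold. With decitabine in resistant tumours, 11 of its 34 tested genes rose (background 3.33%; median log2 0.79, against -0.00 over all genes). The count was 5 without resistant decitabine 2 alone or with parental vehicle 3 also left out, and 16 without resistant vehicle 3. Their summed level was 2103 to 2173 CPM in resistant decitabine tumours and 846 to 1623 CPM in resistant vehicle tumours. In the averaged decitabine comparison 24 of 34 rose (background 6.8%; median log2 0.58), among them MX1, a GTPase that restricts viruses, by 1.30 (SE 0.27) and IFI27 by 1.22 (SE 0.31). The list and SAMHD1 did not go together in every group. With the combination in parental tumours 5 of the 34 rose (background 1.03%; median log2 0.33), while SAMHD1 had its lowest group mean there, 43.1 ± 8.57 CPM (SD, n = 4), and was not called over vehicle (log2 -0.14, adjusted p = 0.671). The part of interferon signalling in the SAMHD1 levels was not tested.

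Myeloid cells express SAMHD1 strongly, and the host mice keep them. Of 11 myeloid markers, 7 were tested, and FCER1G and LAPTM5 rose with decitabine in resistant tumours (background 3.33%; median log2 0.24). The summed level of the 11 was 181.7 to 230.3 CPM in resistant decitabine tumours and 117.3 to 149.5 CPM in resistant vehicle tumours, most of it LAPTM5. With decitabine in parental tumours 2 of the 7 rose and 0 fell (background 1.67%; median log2 1.06). In the averaged decitabine comparison 3 of the 7 rose and 0 fell (background 6.8%; median log2 0.67). LAPTM5 rose there by 0.81 (SE 0.10) and CTSS by 0.67 (SE 0.13). Some of the 11 had few counts or similar levels in the resistant groups. TYROBP had 2 counts in the resistant decitabine libraries and 0 in the resistant vehicle libraries, and ITGAM likewise had 2 and 0. PTPRC averaged 3.33 CPM in resistant decitabine and 3.37 CPM in resistant vehicle tumours. The part of these cells, and of mouse reads, in the SAMHD1 difference was not tested.

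Ribonucleotide reductase supplies the competing deoxynucleotides, from the large subunit RRM1 and the small subunits RRM2, the cycling one, and RRM2B, the p53-inducible one. RRM2 (chr2:10120698-10131419, plus strand) rose with decitabine in the parental line. It stood at 195.2, 175.8, 237.7 and 143.7 CPM in parental decitabine tumours, against 138.2, 124.3, 100.1 and 73.0 CPM in parental vehicle tumours. The groups did not overlap, as for 9.46% of all tested genes, though the lowest decitabine library was close to the highest vehicle library. The log2 difference was 0.79 (SE 0.18, adjusted p = 0.0313), the 1 call among the 10 genes, with a background of 1.67%. It missed the threshold without parental decitabine 3 (0.181), parental vehicle 3 (0.0730) or parental vehicle 4 (0.130), and without resistant decitabine 2 and parental vehicle 3 together (0.0583).

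In resistant tumours RRM2 stood at 117.3, 97.2 and 160.5 CPM with decitabine, against 121.2, 132.0, 116.0 and 158.9 CPM with vehicle, groups that overlapped (log2 -0.08, SE 0.20, adjusted p = 0.860). Resistant over parental, under decitabine, the log2 difference was -0.59 (SE 0.20, adjusted p = 0.0279), and this call was lost in 4 of 7 fits that left out a library, with a log2 difference of -0.44 (adjusted p = 0.171) without resistant decitabine 2. Of 25 proliferation genes tested, 3 rose with decitabine in parental tumours and 22 were not called (background 1.67%; median log2 0.52, against 0.01 over all genes). The count was 1 without resistant decitabine 2 and parental vehicle 3, 0 without parental decitabine 3, parental vehicle 3 or parental vehicle 4 alone, and 9 without parental vehicle 1. Their summed level was 3607 to 4755 CPM in parental decitabine tumours and 2133 to 3334 CPM in parental vehicle tumours. Their part in the RRM2 difference was not tested. RRM2, with 17535 counts over all libraries, overlaps AC007240.1 on the same strand, with 777 counts.

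RRM1 (chr11:4094707-4138876, plus strand) stood at 267.6, 100.01 and 275.5 CPM in resistant decitabine tumours, against 539.8, 483.6, 545.4 and 318.4 CPM in parental decitabine tumours. The lines did not overlap under decitabine, as for 31.1% of all tested genes, and the log2 difference was -1.14 (SE 0.29, adjusted p = 0.00436). Resistant library 2 was far below the others, and without it the log2 difference was -0.80 (adjusted p = 0.0358). Averaged over treatments it was -0.40 (SE 0.14, adjusted p = 0.0182), while under vehicle RRM1 averaged 333.3 ± 66.8 CPM in resistant and 289.3 ± 102 CPM in parental tumours (SD, n = 4 each), which overlapped. The log2 difference was 0.02 under doxorubicin (adjusted p = 0.977) and -0.69 under the combination (adjusted p = 0.0770), and neither was called.

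Set against vehicle, decitabine left RRM1 with a log2 difference of -0.63 in resistant tumours (SE 0.28, adjusted p = 0.209) and of 0.71 in parental tumours (SE 0.26, adjusted p = 0.132). Neither passed. Without resistant decitabine 2 and parental vehicle 3 these values were -0.30 in resistant and 0.50 in parental tumours.

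RRM2B (minus strand of chromosome 8) was called in no comparison by edgeR, and its group means ran from 16.5 ± 1.92 CPM in parental doxorubicin tumours (n = 3) to 22.5 ± 4.65 CPM in parental decitabine tumours (n = 4). Averaged over line and doxorubicin, decitabine gave it a log2 difference of 0.27 (SE 0.09, adjusted p = 0.0776), which missed the threshold, while DESeq2 called it (adjusted p = 0.0496). The ratio of RRM2 to RRM2B counts ran from 4.01 to 8.48 in resistant libraries (median 6.35) and from 3.37 to 10.5 in parental libraries (median 7.53).

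Whether the lines responded differently to decitabine was tested as the resistant response minus the parental response. By edgeR 0 of the 10 genes passed, with a background of 0.119%. An unadjusted p under 0.05 was found for 4 of the 10, against 19.6% of all genes. DESeq2 called 2 of the 10 and 297 of all genes. Those 4 genes all had a lower response in the resistant line: RRM1 with a log2 difference of responses of -1.34 (SE 0.38, adjusted p = 0.0971), SLC29A1 with -0.78 (SE 0.20, adjusted p = 0.0783), RRM2 with -0.87 (SE 0.27, adjusted p = 0.114) and DCK with -0.99 (SE 0.44, adjusted p = 0.215). Without resistant decitabine 2 and parental vehicle 3 these adjusted p-values were at least 0.521. Without parental vehicle 1 the test called SLC29A1 (0.0371), RRM1 (0.0420) and RRM2 (0.0457), and without resistant decitabine 3 it called SLC29A1 (0.0377). The effect of decitabine on RRM2 in the parental line and on SAMHD1 in the resistant line is not shown to be particular to a line.

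Doxorubicin alone called none of the 10 genes. Against vehicle, edgeR called 0 in resistant tumours (background 0%, 1 with an unadjusted p under 0.05, DESeq2 0) and 0 in parental tumours (background 0.23%, 1 with an unadjusted p under 0.05, DESeq2 0). Averaged over line and decitabine it also called 0 (background 2.37%, 0 with an unadjusted p under 0.05, DESeq2 0). The shares of all genes with an unadjusted p under 0.05 were 4.38% in resistant tumours, 10.5% in parental tumours and 18.6% for the average. The 2 genes with a low unadjusted p were DCTD in resistant tumours, at 35.5 ± 5.80 CPM with doxorubicin and 45.8 ± 4.81 CPM with vehicle (SD, n = 4 each), and SLC29A1 in parental tumours, at 84.0 ± 6.74 CPM with doxorubicin (n = 3) and 62.6 ± 11.0 CPM with vehicle (n = 4).

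The combination against vehicle likewise called 0 of 10 in resistant tumours by edgeR (background 1.13%, 3 with an unadjusted p under 0.05, DESeq2 1) and 0 of 10 in parental tumours (background 1.03%, 2 with an unadjusted p under 0.05, DESeq2 1). Of all genes, 15.5% in resistant and 17.9% in parental tumours had an unadjusted p under 0.05. The closest in resistant tumours was SAMHD1, at 79.1 ± 3.25 CPM with the combination (n = 3) and 50.0 ± 7.48 CPM with vehicle (n = 4), a log2 difference of 0.66 (SE 0.18, adjusted p = 0.0639). The closest in parental tumours was SLC29A2, given above.

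The wider nucleoside pathway was read from 5 further lists holding 61 genes, of which 48 were tested. Under vehicle 6 of the 48 differed between resistant and parental tumours (12.5%, against a background of 20.1%), 4 of them higher and 2 lower, with a median log2 of 0.07 against 0.02 over all genes. Among 17 other nucleoside and nucleotide kinases tested, ADK, adenosine kinase, rose by 0.57 (SE 0.15) and DGUOK, the mitochondrial deoxyguanosine kinase, by 0.40 (SE 0.11). Of 10 nucleotidases and pool-cleansing enzymes NT5C3B, which removes phosphate from nucleoside monophosphates, rose by 0.46 (SE 0.15).

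Of 12 genes of pyrimidine synthesis and salvage UPP1, uridine phosphorylase, rose by 0.56 (SE 0.18). Among 4 drug targets DNMT1, the methyltransferase that decitabine traps, fell by 0.53 (SE 0.15, adjusted p = 0.0101), with a mean of 229.1 CPM in parental vehicle tumours, the higher group. Averaged over treatments 21 of the 48 pathway genes were called (43.8%), 13 higher and 8 lower, against the background of 46% given above.

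With decitabine averaged over line and doxorubicin, 6 of the 48 genes had an unadjusted p under 0.05, where 19.9% of all genes did. By the adjusted p 1 of the 48 was called (2.08%, against a background of 6.8%). It was ABCG2, an efflux transporter with nucleoside analogues among its substrates, which rose by a log2 of 0.96 (SE 0.23, adjusted p = 0.0109) at a mean of 5.09 CPM. The median log2 of the 48 was 0.04, against -0.01 over all genes.

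Among the 10 genes themselves, log2 CPM over the 29 libraries was most alike for DCK and RRM1 (Pearson r = 0.777), CDA and CMPK1 (0.765) and SLC29A1 and RRM1 (0.749), and most opposed for SAMHD1 and CMPK1 (-0.656). Of all genes tested, those most like CDA included RPS28 (0.957), MOCS1 (0.950) and PPIL1 (0.949). RRM2 was most like MCM10 (0.904), MELK (0.891), SPAG5 (0.877) and DEPDC1 (0.868). These values describe libraries that share lines, treatments and depth, and CDA separates the lines.

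The surroundings of CDA on chromosome 1 were looked at after its values had been seen. Of 8 tested genes within 500 kb, 5 were lower in resistant tumours averaged over treatments by edgeR (median log2 of the 8, -0.41), where 23.4% of all tested genes were lower. The 3 not called in this average were CAMK2N1, MUL1 and SH2D5. DDOST, a subunit of the oligosaccharyltransferase, was lower by a log2 of -1.11 (SE 0.29), PINK1-AS by -0.60 (SE 0.14), EIF4G3, a translation initiation scaffold, by -0.61 (SE 0.07), HP1BP3, a heterochromatin-binding protein, by -0.44 (SE 0.07) and PINK1, a mitochondrial kinase, by -0.39 (SE 0.06). The CDA difference of -2.42 (SE 0.14) was larger than each of these. Under vehicle alone 3 of the 8 were lower, namely EIF4G3 (-0.54), MUL1 (-0.53) and PINK1 (-0.32). Not called there were DDOST (-0.13, adjusted p = 0.895), HP1BP3 (-0.17, adjusted p = 0.381) and PINK1-AS (-0.65, adjusted p = 0.0906), besides CAMK2N1 and SH2D5. PINK1 and its antisense gene overlap, so that their reads cannot be told apart without the strand setting of the counting. Around CMPK1, looked at in the same way, 2 of 3 tested genes were higher and 1 was lower averaged over treatments (median log2 0.35). Of all tested genes, 22.6% were higher and 23.4% lower in that average.

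**Figure D4:**
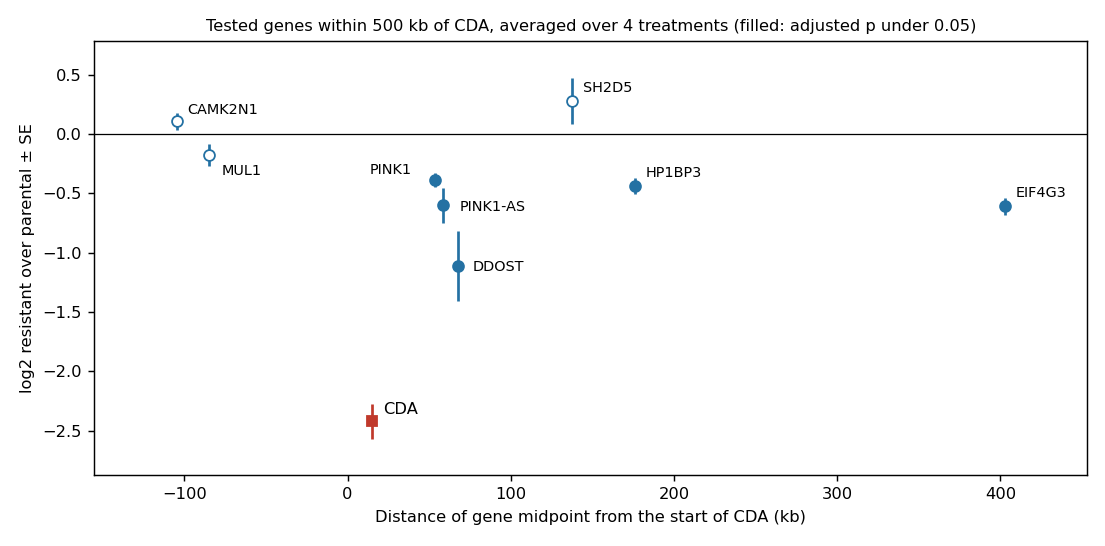
Log2 difference of resistant over parental tumours, averaged over 4 treatments, ± SE, against the distance of each gene's midpoint from the start of CDA in kb, with filled circles for an adjusted p under 0.05 and a square for CDA. The 5 filled neighbours lie between -1.11 and -0.39, above CDA at -2.42.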

How the data were processed

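Gene-level RNA was measured in 29 xenograft libraries prepared, per the labels' protocols, with a 3′ tag kit (QuantSeq FWD) after poly(A) selection. The authors deposited unnormalised whole-number counts for each gene. Cutadapt, STAR 2.7.3a, featureCounts, DESeq2 and the build GRCh38.p10 are named in the submitters' processing notes. The strand setting and the treatment of mouse reads are not given in the sources used here. Each library took its group from its sample title.

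Genes were filtered by filterByExpr on the 8 groups, with a minimum count of 10 and a minimum total of 15 over all libraries. The minimum count acts as a CPM cutoff to be met in about as many libraries as the smallest group holds. Counts were then scaled by TMM and fitted in edgeR 4.0.16 (R 4.3.3) with 8 group means and robust quasi-likelihood dispersions (common dispersion 0.0304). The 14 contrasts were each adjusted by the Benjamini-Hochberg method over 13495 genes, which held 99.7% of counts, and called at 0.05. CPM are counts scaled to a TMM-adjusted library of 1000000. Every pair of libraries within a group differed by more than sampling noise (chi-square over its degrees of freedom at least 3.94).

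Alternatives were DESeq2 1.42.0, its size factors or upper quartile scaling in edgeR, no filter, a replicate block, leaving out each library, and leaving out resistant decitabine 2 with parental vehicle 3. Gene positions came from GENCODE 29 and promoters from RefSeq. The members and lists were chosen with earlier results of these data known. Named pathway genes were up to 3 called genes per list (up to 2 in other lists) with the largest difference and at least 5 CPM, and the 4 genes most like CDA and RRM2. Of the genes this rule selects, 2 are not reported here.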

Additional observations from a re-analysis of the deposited data

Results flagged for a closer look

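In 2 of 50 groups of 4 libraries, a single library lay far from the other 3 in the level of a gene, by Dixon's gap criterion, where chance alone would flag about 1 in 20. SLC29A2 reached 25.5 CPM in parental vehicle library 3, against 15.4 to 16.5 CPM in the other parental vehicle libraries. CMPK1 reached 96.7 CPM in the same library, against 93.2 to 93.5 CPM in the other parental vehicle libraries, a small gap that is large only beside their narrow spread. This library also stood apart on the second principal component over all genes.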

How the results depend on the processing

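Of 22 member differences called, 14 were called in every fit and 17 under every alternative other than leaving out single libraries, and 0 turned sign. Other scalings moved the median of all genes by at most 0.06 log2. Counts of the 10 genes called changed most for the drugs. Decitabine in parental tumours called 3 with no filter and 0 without resistant decitabine 2 and parental vehicle 3. Decitabine in resistant tumours called 2 with DESeq2, with no filter or with the replicate block, and 0 without those libraries. Averaged decitabine called 2 with DESeq2. The combination in resistant tumours called 1 with DESeq2's size factors, DESeq2 or without those libraries and 2 with no filter, and in parental tumours 1 with DESeq2 or no filter. The difference in decitabine response called 2 with DESeq2 and 3 with no filter. With single libraries left out, the counts ran from 1 to 3 (lines under vehicle), 4 to 5 (decitabine), 1 to 2 (doxorubicin), 0 to 1 (decitabine over vehicle in each line, and the combination in parental tumours), 0 to 2 (averaged decitabine) and 0 to 3 (difference in response). The cause was not tested. Without resistant decitabine 2 and parental vehicle 3, values near 0 turned sign, namely decitabine over vehicle for CDA in parental tumours (0.082), DCK in resistant tumours (0.16) and RRM2 in resistant tumours (0.073). With single libraries left out they ran from -0.16 to 0.095 for CDA, from -0.40 to 0.16 for DCK and from -0.30 to 0.073 for RRM2.

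Over all genes, decitabine in parental tumours called 225 genes, against 499 with DESeq2, 942 with no filter, 147 with the replicate block and 96 without those libraries, and upper quartile scaling called 35.9% of its 234 genes higher, against 107 of 225. In resistant tumours it called 450, against 1089 with no filter and 162 without those libraries. Doxorubicin called 31 in parental tumours (DESeq2 150, no filter 192, block 3, without those libraries 3) and 0 in resistant tumours (DESeq2 1, no filter 74, 591 with an unadjusted p under 0.05). The combination called 139 in parental tumours (DESeq2 342, no filter 884, without those libraries 85) and 152 in resistant tumours (256, 783 and 363 by the same settings). Averaged doxorubicin called 320 (DESeq2 611, no filter 774). The difference in decitabine response called 16 (upper quartile 32, DESeq2 297, no filter 1001, without those libraries 7).

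With single libraries left out, the counts over all genes ran lower or higher by the library removed. For decitabine they ran from 6 (without parental decitabine 3) to 608 (without parental vehicle 1) in parental tumours, and from 146 (without resistant decitabine 2) to 728 (without resistant decitabine 1) in resistant tumours. For doxorubicin they ran from 1 (without parental doxorubicin 3) to 124 (without parental vehicle 2) in parental tumours, and from 63 (without resistant decitabine 3) to 728 (without resistant combination 2) for the average. For the combination they ran from 53 (without parental vehicle 3) to 154 in parental tumours, and from 49 (without resistant combination 1) to 156 in resistant tumours. The difference in response ran from 7 (without resistant decitabine 2) to 299 (without parental vehicle 1). Between the lines they ran from 2037 to 2542 with vehicle (2718 with all libraries), 2320 to 3530 with decitabine (3616), 1253 to 1623 with doxorubicin (1879) and 1817 to 3142 with the combination (2960).

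Replicate numbers did not pair the libraries. Same-numbered libraries had a median correlation of deviations of -0.006, and 7 of 29 libraries correlated best with their own number. At the counts of DCK and CDA, small differences were not detectable. The fit estimates the spread over all groups together, and leaving out a library of a group of 3 makes it lean more on the other groups.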
